A study of Mus musculus with 15 samples.

Results

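NRL, the basic leucine zipper (bZIP) factor that commits photoreceptor precursors to the rod fate, was found at 667 chromatin peaks at each of 4 postnatal ages, among 8996 peaks quantified in the mouse retina (7.41%). These 667 peaks were chosen by the authors' calls: a quantified peak had to overlap, by 1 bp or more, a peak in each of the deposited lists of the postnatal ages, which are days 2 (P2), 4 (P4), 10 (P10) and 28 (P28). The calls therefore used the signal at every age. Presence and level are given as a description with no test. Differences between ages were not part of the rule, but each required call bears on the comparisons between ages. A call in the P2 list, the shortest with 1221 peaks, draws in peaks whose P2 signal was high. Requiring calls at the later ages leaves out peaks too weak to be called there, such as those that fell furthest by P28. In the other lists, 3161 peaks were called at P4, 7520 at P10 and 3482 at P28. Of all 8996 peaks, 3767 were called at P10 only, so shares of the set and of all peaks are not like for like between ages. With each list shortened to its 1221 strongest peaks, 341 of the 667 met the rule, and 452 did when the overlap had to cover at least 50% of the quantified peak.

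NRL belongs to the large Maf family. Such factors bind DNA as pairs, either with themselves or with other bZIP proteins such as FOS and JUN, and read a core next to which AP-1 or CRE letters can stand. In rods NRL acts with the homeodomain factor CRX and switches on the nuclear receptor gene Nr2e3, which represses cone genes, together with genes of phototransduction and of the outer segment. In the mouse the last rods are born in the first postnatal week, outer segments form in the second, and the retina is mature by about the fourth. CUT&RUN was used: an antibody carries a nuclease to the protein in permeabilised cells, and the fragments cut out beside it are sequenced.

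Every group was the retina of C57BL/6J mice, dissociated with papain, at 250000 cells per experiment, with an antibody to NRL; the labels name no mutant, treatment or control antibody. The groups differed by age alone: 2 libraries at P2 (replicates 3 and 4) and 2 for each later age, numbered 3 and 4 for P4 and P28 but 1 and 4 for P10. The labels list 15 libraries, and the other 7 were not analysed here. They do not say whether replicates are separate animals, so p-values measure the spread between these libraries, which may be technical. Whole retinas hold all retinal cell types, and a larger share of cells with NRL at a site cannot be told apart from more NRL per cell. Values are RPKM, reads scaled to the length of the peak and to the library, and are given in the replicate order above. Reads inside all peaks ranged from 49430 (P2 replicate 4) to 227692 (P10 replicate 4) per library. Every one of the 667 peaks had at least 4 reads in every library, with medians from 14 to 62. Positions are 1-based in GRCm38.p6.

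Promoter stretches of 4 of the peaks are shown first because they hold the Maf core (TGCTGA, either strand) inside a peak that a later paragraph describes. They come from RefSeq's promoter windows (GRCm38.p6), run 5′ to 3′ on the gene's strand, and have the Maf core and the CRX core (TAATCC, either strand) in capitals. Rsrp1 encodes a nuclear arginine- and serine-rich protein, Sag rod arrestin, Samd11 a repressor found in photoreceptors, and Neurod1 a neurogenic transcription factor.
Rsrp1 (chr4:134923545-134923624, plus strand): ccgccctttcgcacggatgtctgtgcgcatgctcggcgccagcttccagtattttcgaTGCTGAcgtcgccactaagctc
Sag (chr1:87803456-87803535, plus strand): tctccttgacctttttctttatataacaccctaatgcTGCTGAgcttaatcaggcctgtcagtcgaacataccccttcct
Samd11 (chr4:156255402-156255481, minus strand): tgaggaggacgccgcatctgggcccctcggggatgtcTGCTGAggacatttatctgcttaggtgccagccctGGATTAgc
Neurod1 (chr2:79456638-79456717, minus strand): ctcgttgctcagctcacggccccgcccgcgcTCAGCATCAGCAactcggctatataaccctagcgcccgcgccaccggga

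Sag and Rsrp1 hold 1 Maf core each. Samd11 holds a Maf core and a CRX core, and Neurod1 holds 2 adjoining Maf cores on the opposite strand to the gene. A match is a description of letters, not of a bound site.

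Most of the 667 peaks sat on gene starts. Of these, 520 (78.0%, Wilson 95% interval 74.7 to 80.9) lay within 1 kb of a transcription start site in the authors' annotation, against 56.8% of all 8996 peaks (55.7 to 57.8), and 463 (69.4%) contained the start itself. Peaks called from P4 onward but not at P2 were similar in place, with 76.2% of 836 within 1 kb. Of the 147 peaks farther out, most were annotated to introns, which held 90 of the 667, or to intergenic DNA, which held 41. Exons held 9, the 3′ UTR 5 and the 5′ UTR 1, with 6 just downstream of a gene. Nearest genes were protein-coding for 632, lncRNA for 30 and miRNA for 4. The peaks were wide, with a median of 488 bp against 322 bp for all peaks, and fell near 644 different genes. A wider peak meets a rule of overlap more easily, so the width is not independent of the rule. Chromosome 7 held 81 of them, 11.9% of its 680 peaks. Peaks share a library and a caller, so these intervals cover counting of peaks only.

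The signal rose from P2 to P10 in level and was lower at P28, as it was in the whole table. The median of the age means was 6.00 (P2), 10.1 (P4), 17.5 (P10) and 7.44 RPKM (P28), against 2.17, 3.51, 6.27 and 3.81 for all peaks. The mean was highest in P10 for 604 of the 667 peaks, in P4 for 29, in P28 for 28 and in P2 for 6. Peaks beyond 1 kb of a start site were the stronger: their medians were 9.33, 21.7, 42.6 and 12.7 RPKM in order of age, and those of promoter peaks 5.45, 8.68, 14.0 and 7.03. The 667 peaks held 26.9 and 26.4% (P2), 26.7 and 28.7% (P4), 29.0 and 26.7% (P10) and 23.1 and 24.5% (P28) of the reads in peaks. The share of the library's scale that fell in any peak moved with age too, being 0.986 and 0.940% (P2), 1.09 and 2.15% (P4), 3.08 and 2.84% (P10) and 1.52 and 1.51% (P28). Its part in the age differences was not tested, and counts over the 667 peaks with each library centred on its median over all peaks stand beside the main ones. Where such centring ended the call of a named peak, that is said beside it.

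**Figure D1:**
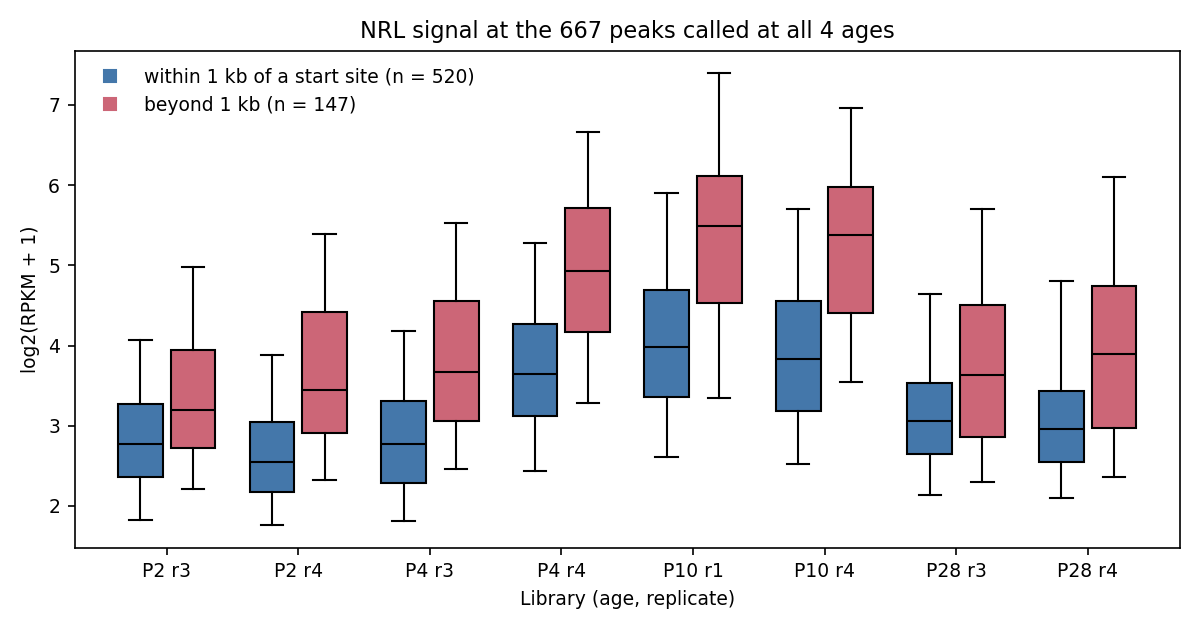
NRL signal, log2(RPKM + 1), at the 667 peaks in each of the 8 libraries (age and replicate on the x axis). Boxes span the middle quartiles with the median as a line and whiskers run from the 5th to the 95th percentile; blue boxes are the 520 peaks within 1 kb of a start site and red boxes the 147 others, which have the higher median in every library.

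The 12 strongest peaks by mean level, 1 per gene, lay in introns or between genes in 10 cases. First was an intron of Msi1 (chr5:115402029-115402420), the gene of the RNA-binding protein Musashi-1, with RPKM of 27 and 42.7 (P2), 45 and 106 (P4), 203 and 151 (P10) and 103 and 137 (P28). Both P28 libraries lay above both P2 libraries there, and the change, on the log2 scale, was 1.78 ± 0.56 (SE; limma adjusted p = 0.038). An intergenic peak assigned to Gm33677, a lncRNA (chr10:119065497-119065826), had 38.9 and 50.2 (P2), 57.3 and 121 (P4), 222 and 140.3 (P10) and 25.8 and 21.3 (P28). Its P28 values were the lowest of all 8, and the log2 change from P10 to P28 was -2.86 ± 0.55 (SE; limma adjusted p = 0.0012). The others were assigned to Ccdc86, Mir182, Sipa1l3, Gm7616, Samd7, Ebpl, Ncoa2, Rp1, Ptp4a3 and Gnb1. Ccdc86 (intergenic), Sipa1l3 and Ptp4a3 fell from P10 to P28 by 1.86, 1.67 and 1.71 on the log2 scale (SE 0.55 each; limma adjusted p = 0.019, 0.032 and 0.029). These 3 calls were lost when any P10 or P28 library was left out (adjusted p up to 0.22, 0.34 and 0.24 over the fits without 1 library), and the Msi1 call without either P2, P10 or P28 library (up to 0.22). Centring ended the calls of Msi1, Sipa1l3 and Ptp4a3 (limma adjusted p = 0.056, 0.078 and 0.060).

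Among genes of rod phototransduction and outer segments, 6 of the 35 listed had a peak of the set within 50 kb (17.1%), against 594 of 21900 protein-coding genes (2.71%). The 2.71% is a share of all protein-coding genes, with or without an NRL peak. A peak of the whole table lay within 50 kb of 31 of the 35. The 6 genes were Gnb1, Pdc, Prph2, Rom1, Rp1 and Sag. Of these 6 peaks, 3 rose from P4 to P10 (Gnb1, Pdc, Prph2), none fell, and 3 were higher at P28 than at P2 (Gnb1, Prph2, Rp1); the median changes were 1.55 and 1.62, against 0.73 and 0.57 for all 8996 peaks. The background of calls in the first of these comparisons was 15.6% of all peaks higher at P10, and in the second 9.64% higher at P28. Centring ended the calls of Gnb1 and Pdc from P4 to P10 (limma adjusted p = 0.076 and 0.16) and that of Rp1 (0.057).

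Prph2, which encodes peripherin 2 of the disc rim, had the lowest signal of the 6 at P2. Its intron peak (chr17:46912112-46912749) had 3.16 and 3.58 (P2), 6.57 and 12.1 (P4), 53.3 and 42.8 (P10) and 22.3 and 19.8 (P28) RPKM. Every P10 and P28 value there exceeded every P2 and P4 value. The change from P4 to P10 was 2.29 ± 0.53 (SE; limma adjusted p = 0.0061) and that from P2 to P28 2.33 ± 0.53 (SE; limma adjusted p = 0.0059). The Rp1 intron peak (chr1:4357618-4357948), in the gene of an axonemal protein of the outer segment, had 17.5 and 27.6 (P2), 33 and 75.9 (P4), 174 and 126 (P10) and 69.3 and 86.1 (P28) RPKM, and rose between P2 and P28 by 1.77 ± 0.56 (SE; limma adjusted p = 0.038).

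Gnb1, the transducin beta subunit gene, had 15.3 and 19.9 (P2), 23.9 and 62 (P4), 169 and 121 (P10) and 71.5 and 79 (P28) RPKM at a start site (chr4:155522186-155522664). The P10 libraries stood above the rest, the P28 ones next; the change from P4 to P10 was 1.87 ± 0.56 (SE; limma adjusted p = 0.025). At the promoter of Pdc (chr1:150319247-150319517), whose product phosducin binds transducin beta-gamma, RPKM was 22.8 and 30.9 (P2), 32.8 and 62.2 (P4), 152 and 119.7 (P10) and 67.4 and 71.3 (P28). The rise from P4 to P10 there was 1.56 ± 0.54 (SE; limma adjusted p = 0.047). The promoters of Rom1, a partner of peripherin 2, and Sag passed no test. Rom1 (chr19:8929027-8929609) had 17.3 and 22.5 (P2), 30.3 and 73.2 (P4), 128 and 88.4 (P10) and 54.2 and 59.5 (P28) RPKM, and Sag (chr1:87803416-87804032), whose Maf core is printed above, had 12.2 and 26.8 (P2), 24.9 and 49.8 (P4), 122 and 81.1 (P10) and 45.4 and 46.2 (P28). In both, the P10 libraries were the highest and the P2 libraries the lowest, with the exception of Sag at P2 replicate 4, which lay above P4 replicate 3. The P4 to P10 call of Prph2 was lost without P10 replicate 1 or 4 (adjusted p up to 0.11), that of Gnb1 also without P4 replicate 3 (up to 0.25) and that of Pdc without any library but P4 replicate 4 (up to 0.31), and the Prph2 call of P28 against P2 without P28 replicate 3 (0.059). The Rp1 call was lost without either P2, P10 or P28 library (up to 0.21), and the P28 against P2 call of Gnb1 without either P2 or P28 library (up to 0.11).

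Photoreceptor transcription factor genes had the largest share of the 16 lists, with such a peak at 6 of 20 genes (30.0%): Casz1, Crx, Neurod1, Rorb, Samd11 and Samd7. A peak of the whole table lay within 50 kb of 15 of the listed genes. Of the 6 peaks, Samd11 rose from P4 to P10 and none fell, Casz1, Samd7 and Samd11 fell from P10 to P28 and none rose, and none passed in P28 against P2. The background of the P10 to P28 comparison was 20.7% of all peaks lower and 1.29% higher.

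The Samd7 intron peak (chr3:30748258-30748698), in the gene of a retinal Polycomb-associated repressor, had 18.8 and 35.8 (P2), 43.2 and 116 (P4), 225 and 156 (P10) and 36.9 and 38.2 (P28) RPKM. Its P28 values were near those of P2 while P10 was the highest, with a change from P10 to P28 of -2.29 ± 0.57 (SE; limma adjusted p = 0.0072). Samd11 at its promoter (chr4:156255049-156255698), the stretch with a Maf and a CRX core, had 12.2 and 12.9 (P2), 17.8 and 52.3 (P4), 118 and 101 (P10) and 21 and 32.5 (P28) RPKM. It rose from P4 to P10 by 1.80 ± 0.57 (SE; limma adjusted p = 0.032) and changed by -2.02 ± 0.57 (SE; limma adjusted p = 0.014) to P28. Casz1, a zinc finger gene of retinal progenitors and rods, had 10.2 and 13.2 (P2), 12.4 and 33.8 (P4), 58.5 and 57.3 (P10) and 2.52 and 6.08 (P28) RPKM in an intron (chr4:148940569-148940999). Both P28 values lay below all 6 others, and the change from P10 was -3.56 ± 0.58 (SE; limma adjusted p = 0.00037), called in every fit that left out 1 library. The Samd7 call was lost without P10 replicate 1 (adjusted p = 0.12), and those of Samd11 without P10 replicate 1 or 4, the rise also without P4 replicate 3 (up to 0.23) and the fall also without P28 replicate 3 (up to 0.15). Centring ended the Samd11 rise (limma adjusted p = 0.11).

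The remaining factors passed no test between ages. Downstream of Crx (chr7:15864154-15864512) RPKM was 9.82 and 9.54 (P2), 14.1 and 35 (P4), 57.9 and 40.0 (P10) and 28.9 and 24.6 (P28). In an intron of Rorb (chr19:18998908-18999391), the orphan receptor gene needed for Nrl expression, it was 7.81 and 11.4 (P2), 12.3 and 31.3 (P4), 43.3 and 44.3 (P10) and 21.4 and 19.6 (P28). At the Neurod1 promoter (chr2:79456572-79457015) it was 3.4 and 5.14 (P2), 5.43 and 14.2 (P4), 19.5 and 16.3 (P10) and 9.07 and 7.37 (P28), the lowest of the 6 in level. All 3 had their highest age mean at P10. A peak assigned to Otx2, the homeobox gene upstream of Crx, lay at -67506 bp from that gene's start, beyond the 50 kb used for the lists.

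**Figure D2:**
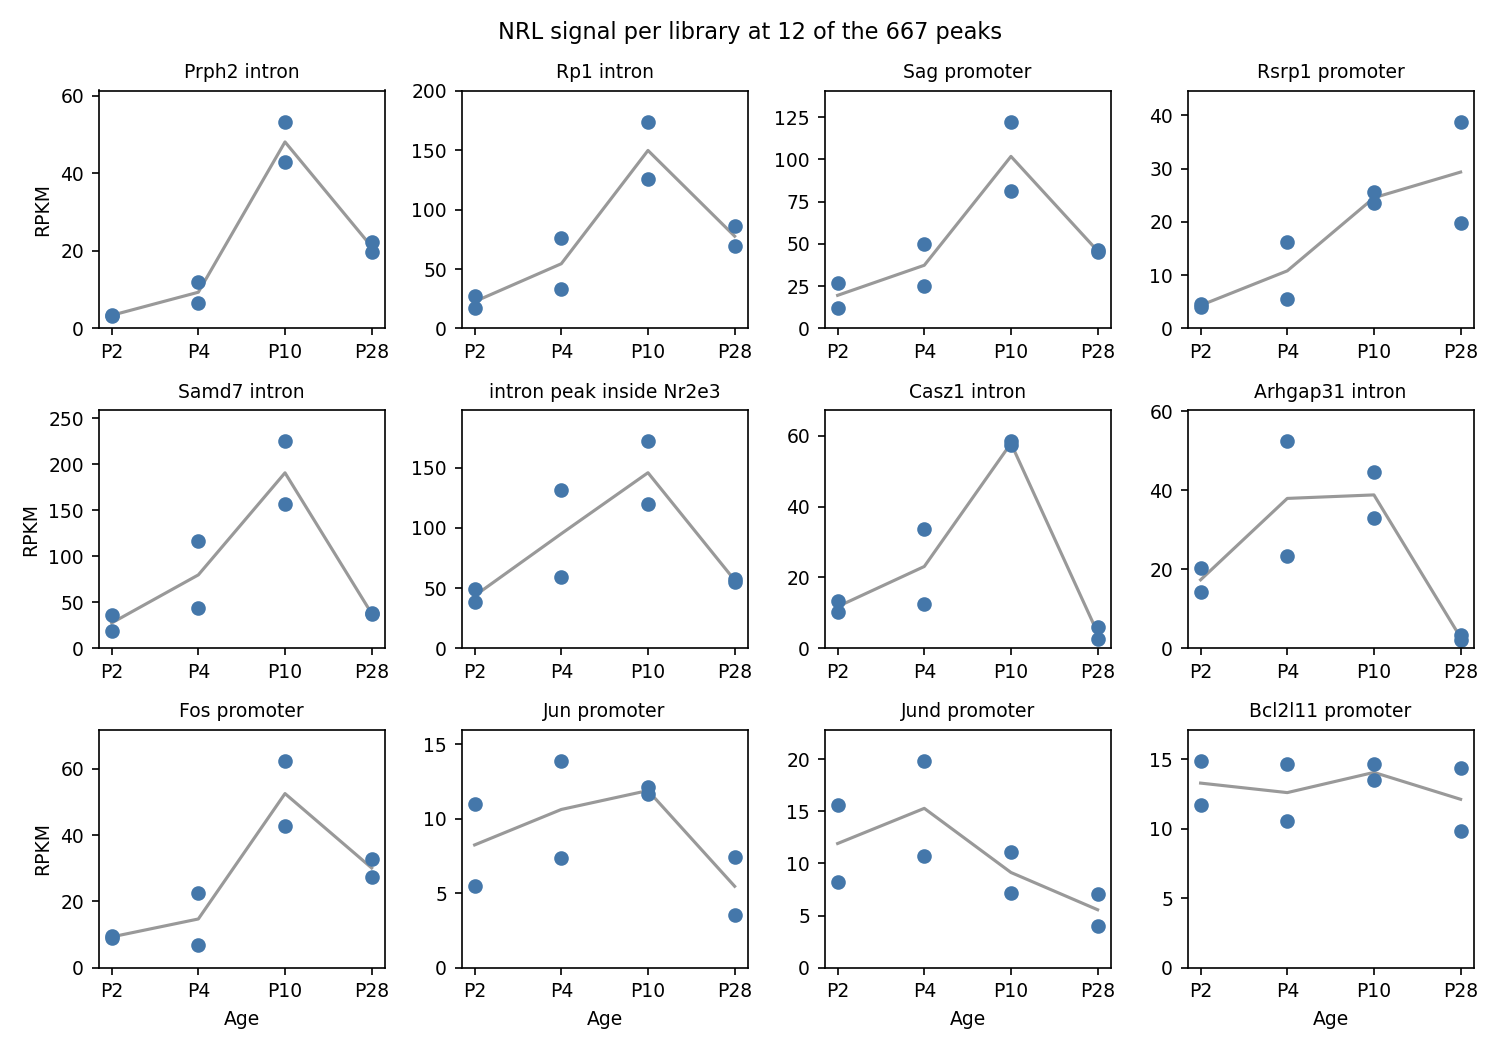
NRL signal in RPKM (y axis from 0, own scale per panel) at 12 of the 667 peaks by age; each point is a library and the grey line joins the means of the 2 libraries of an age. Prph2, Rp1 and Sag are highest at P10, Casz1 and Arhgap31 are lowest at P28, and Bcl2l11 stays between 9.85 and 14.9.

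Nr2e3, the NRL target that encodes the cone-repressing receptor, held 2 of the peaks within its RefSeq gene body, although the authors' annotation assigns both to the lncRNA Gm7616. The first (chr9:59951044-59951452, a promoter of Gm7616) had 24.9 and 34.9 (P2), 52.8 and 119.8 (P4), 139 and 94.3 (P10) and 34.8 and 27.2 (P28) RPKM, and the second (chr9:59952698-59953097) had 38.1 and 49 (P2), 59 and 131 (P4), 172 and 119.8 (P10) and 55.4 and 57.7 (P28). The P10 libraries and P4 replicate 4 were the high ones at both. From P10 to P28 the first changed by -1.86 ± 0.55 (SE; limma adjusted p = 0.02) and the second by -1.33 ± 0.55 (SE; limma adjusted p = 0.081). The call for the first was lost without any P10 or P28 library (adjusted p up to 0.23).

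A strong peak assigned to Mir182 (chr6:30147116-30147470) lay inside Nrf1, which encodes a respiratory factor, and 18492 to 22241 bp from the mature 5p miRNAs of a cluster that photoreceptors express. They are printed from RefSeq with the seed, bases 2 to 8, in capitals because the cluster shares a near-identical seed.
miR-182-5p: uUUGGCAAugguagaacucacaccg
miR-96-5p: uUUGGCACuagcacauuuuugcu
miR-183-5p: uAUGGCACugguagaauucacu

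RPKM at that peak was 41.2 and 62.2 (P2), 52.2 and 105 (P4), 201 and 139.5 (P10) and 72.9 and 89 (P28). Its mean of 51.7 at P2 was the second highest of the 667 peaks, after 67.9 in the intron of Sipa1l3. The peak passed no test between ages. The host gene of miR-22 had a promoter peak (chr11:75461197-75461841) with 7.23 and 6.49 (P2), 7.87 and 13.5 (P4), 23.7 and 17.4 (P10) and 5.52 and 5.08 (P28) RPKM, lower at P28 than at P10 (limma adjusted p = 0.021), and that of a miR-124 had one (chr3:17793600-17794072) with 3.2 and 6.84 (P2), 4.03 and 15.1 (P4), 50.0 and 40.9 (P10) and 11.5 and 19 (P28) RPKM, higher at P10 than at P4 (adjusted p = 0.0097). Both calls were lost without some libraries (adjusted p up to 0.22 for the host of miR-22 and 0.12 for that of miR-124). These 2 host genes were picked after their values were seen.

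The title of the series asks about c-Jun, a bZIP partner, in early rods. Of 28 bZIP genes, 5 had a peak of the set (17.9%): Fos, which had 2, Jun, Jund, Creb1 and Bach2. A peak of the whole table lay within 50 kb of 19 of the 28. At the Jun promoter (chr4:95051944-95052735) RPKM was 11 and 5.53 (P2), 7.38 and 13.9 (P4), 12.1 and 11.7 (P10) and 7.43 and 3.51 (P28). The range of the P4 libraries took in both P10 values and overlapped that of P2, and P28 replicate 3 lay above P4 replicate 3 and P2 replicate 4. Jun passed no comparison (limma adjusted p = 0.78 for P4 against P2, 0.80 for P10 against P4, 0.17 for P28 against P10 and 0.53 for P28 against P2). The Jund promoter (chr8:70698610-70699070) had 15.6 and 8.25 (P2), 10.7 and 19.8 (P4), 7.18 and 11.1 (P10) and 4.03 and 7.1 (P28) RPKM. It was among the 29 peaks with their highest mean at P4, and passed no comparison either.

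Fos encodes the protein that pairs with JUN in AP-1. Its promoter peak (chr12:85473427-85474081) had 9.04 and 9.59 (P2), 6.98 and 22.5 (P4), 62.3 and 42.7 (P10) and 27.4 and 32.7 (P28) RPKM. Both P10 values exceeded all P2 and P4 values, and the change from P4 to P10 was 1.94 ± 0.57 (SE; limma adjusted p = 0.023), lost without P4 replicate 3 or either P10 library (adjusted p up to 0.23) and after centring (0.077). The second Fos peak, between genes at -18301 bp from the start (chr12:85454954-85455589), had 15.2 and 11.7 (P2), 12.2 and 63.3 (P4), 74.1 and 51 (P10) and 30.2 and 39.6 (P28) RPKM, with P4 replicate 4 above P10 replicate 4. In introns of Creb1 (chr1:64568274-64568540), the gene of the cyclic AMP response factor, RPKM was 23.6 and 38.5 (P2), 29.5 and 57.2 (P4), 50.2 and 48.6 (P10) and 15.7 and 27 (P28), and of Bach2 (chr4:32531443-32531710), a bZIP repressor, 13.6 and 22 (P2), 12.3 and 30.4 (P4), 24.1 and 18.6 (P10) and 4.05 and 11 (P28). The lowest library was at P28 for both, and neither passed a test. No difference between Fos and Jun was tested.

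Lists of other photoreceptor functions had 1 or 2 genes each with a peak of the set, beside the 2.71% of all protein-coding genes. The synapse list had 2 genes of 20 (10.0%), the active zone gene Pclo and the fusion protein gene Snap25. The Pclo exon peak (chr5:14723551-14723907) had 6.35 and 10.7 (P2), 13.9 and 23.6 (P4), 62.7 and 60.1 (P10) and 13 and 17.9 (P28) RPKM; it rose by 1.71 ± 0.54 (SE; limma adjusted p = 0.034) from P4 to P10 and changed by -1.94 ± 0.54 (SE; limma adjusted p = 0.014) to P28. Snap25 at its promoter (chr2:136713232-136713550) had 6.71 and 3.58 (P2), 5.57 and 12.1 (P4), 18.8 and 23.5 (P10) and 5.34 and 11.3 (P28) and passed no test. Of 28 cilium genes 1 (3.57%) had a peak, Ift172 of the intraflagellar transport complex; its promoter (chr5:31290988-31291314) had 5.01 and 4.07 (P2), 5.05 and 8.3 (P4), 20.7 and 25.9 (P10) and 9.0 and 9.01 (P28) RPKM and rose from P4 to P10 by 1.69 ± 0.53 (SE; limma adjusted p = 0.031). The cone list had 1 of 18 genes (5.56%), the transducin gamma gene Gngt2, with 4.29 and 2.99 (P2), 8.31 and 12 (P4), 10.7 and 15.4 (P10) and 6.49 and 8.57 (P28) RPKM at its promoter (chr11:95843557-95843938). The rises of Pclo and Ift172 were lost without P4 replicate 3 or either P10 library (adjusted p up to 0.23 and 0.22) and after centring (0.13 and 0.12), and the fall of Pclo without any P10 or P28 library (up to 0.14).

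Housekeeping groups were present too, mostly at promoters. Ribosomal protein genes with a peak included Rpl10a, Rpl3, Rplp0 and Rps19. Of these, Rpl10a and Rps19 fell from P10 to P28; both calls were lost without any P10 or P28 library (adjusted p up to 0.29 and 0.18), and that of Rpl10a also without P2 replicate 3 and after centring (0.078). Rps19 (chr7:24883904-24884641) had 16.6 and 8.25 (P2), 17.4 and 30.8 (P4), 45.5 and 39.7 (P10) and 13 and 9.54 (P28) RPKM, whereas Rplp0 (chr5:115559216-115559876) ran from 3.07 to 6.26 over the 8 libraries. Glycolysis and energy genes had 2 of 28, the isomerase gene Gpi1 and the cytochrome c gene Cycs. The peak assigned to Gpi1 (chr7:34233929-34234429) was annotated to an exon but lay at -3593 bp from that gene's start, outside any RefSeq protein-coding gene. It had 5.78 and 3.42 (P2), 6.08 and 19.7 (P4), 48.4 and 40.3 (P10) and 19.5 and 27.1 (P28) RPKM. It was higher at P28 than at P2 by 2.13 ± 0.58 (SE, limma adjusted p = 0.018), a call lost without P2 replicate 4 or P28 replicate 4. Chromatin modifiers had 3 of 26 (Ep300, Hdac4, Kdm6b) and the cell cycle list 1 of 28 (E2f3); none of these 4 passed a test.

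Marker genes of the other cells of the retina had no peak of the set within 50 kb: 0 of 18 bipolar, 0 of 24 progenitor and neurogenic, 0 of 20 amacrine, horizontal and ganglion cell, 0 of 13 Müller glia, 0 of 17 microglia and vessel and 0 of 11 pigment epithelium markers. With 2.71% of all protein-coding genes holding such a peak, a count of 0 in lists of this size is near the background. Binding near a gene is not its expression, so these counts do not measure which cells were present.

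Between P2 and P4 no peak of the 667 passed limma, as none of all 8996 did (0%). At an unadjusted p under 0.05 there were 72 (10.8%), all higher at P4, against 15.2% of all peaks, and the smallest adjusted p was 0.11. Limma-voom on the reads called 1. The median change was 0.60 on the log2 scale, against 0.48 for all peaks. For 286 peaks both P4 libraries lay above both P2 libraries, and for 7 both lay below (42.9 and 1.05%, against 40.1 and 3.91% of all peaks). Without P4 replicate 3 the count of calls was 168.

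From P4 to P10, 38 of the 667 peaks rose (5.70%) and 0 fell, against 15.6% and 1.51% of all peaks. Limma found 157 (23.5%) at an unadjusted p under 0.05, all higher, against 34.9% of all peaks. The median change was 0.77, against 0.73 for all peaks, so the share called lay below the background while the median lay near it. That nearness may depend on the scale, log2(RPKM + 1), which understates changes at weak peaks. All peaks had medians of 3.51 (P4) and 6.27 RPKM (P10), against 10.1 and 17.5 for the set. With each library centred on its median, 4 were higher and 1 lower. Among called peaks within 50 kb of the start of a protein-coding gene they were assigned to, the largest rises were in an intron of Fam53b, at Prph2 (above), in an intron of Tdrd7, a gene of RNA granules, and at the promoter of Jam2, a junction adhesion gene. The rise at the miR-124 host gene above, a lncRNA, was of like size, 2.36. Fam53b (chr7:132781815-132782135) had 3.92 and 5.33 (P2), 7.91 and 24.9 (P4), 89.8 and 67.6 (P10) and 22.7 and 23.5 (P28) RPKM and changed by 2.38 ± 0.57 (SE; limma adjusted p = 0.0076). Tdrd7 (chr4:45967535-45968152) had 6.11 and 7.7 (P2), 10.1 and 28 (P4), 88 and 73.1 (P10) and 23.1 and 27.6 (P28) and changed by 2.18 ± 0.56 (SE; limma adjusted p = 0.011). In both, every P10 value was above every P4 value and the P28 values were near that of P4 replicate 4. Jam2 (chr16:84774843-84775189) had 5.81 and 6.03 (P2), 4.39 and 25.9 (P4), 47.7 and 46.7 (P10) and 8.03 and 11.8 (P28); its change was 2.00 ± 0.62 (SE; limma adjusted p = 0.03), and that on to P28 was -2.16 ± 0.62 (SE; limma adjusted p = 0.016). Centring ended the Jam2 rise (limma adjusted p = 0.13). No rise was called in every fit without 1 library: leaving out P10 replicate 1 or P10 replicate 4 gave 0 calls, leaving out P4 replicate 3 gave 2 and leaving out P4 replicate 4 gave 331. With a pseudocount of 0.1 it was 0, and on the values as deposited 10.

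From P10 to P28, 140 of the 667 fell (21.0%) and 0 rose, against 20.7% and 1.29% of all peaks. The median change was −0.93, against −0.69 for all peaks, on a scale that understates changes at weak peaks. Falls were called at 10.0% of the 836 peaks called from P4 onward but not at P2. They were called at 53.6% of the 220 peaks called through P10 but not at P28. In the set, both P28 libraries lay below both P10 libraries at 549 peaks (82.3%, against 61.7% of all peaks), and above them at 9 (1.35 against 10.1%). The share below was 65.8% for peaks called from P4 onward but not at P2, and 91.8% for those called through P10 but not at P28. Median reads per peak in these libraries were 22 to 62 in the set and 7 to 15 over all peaks. The part of read number was not tested. Centring left 70 peaks of the set called lower and 1 higher. Falls were called more often away from start sites, at 64 of 147 peaks (43.5%) against 76 of 520 promoter peaks (14.6%). Among all peaks the shares were 36.0 and 8.95%. Peaks of the set away from start sites also had the higher signal at P10, with medians of 42.6 against 14.0 RPKM. The part of signal level in the difference between places was not tested. The difference between the promoter median and the other median, on the log2 scale, was −1.51 and −1.55 in the P10 libraries and −0.57 and −0.93 in those of P28. It thus moved by 0.78 between the ages (exact permutation test over libraries, two-sided p = 0.33, the smallest that 2 against 2 can give). Peaks outside the set showed a shift of 0.80.

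**Figure D3:**
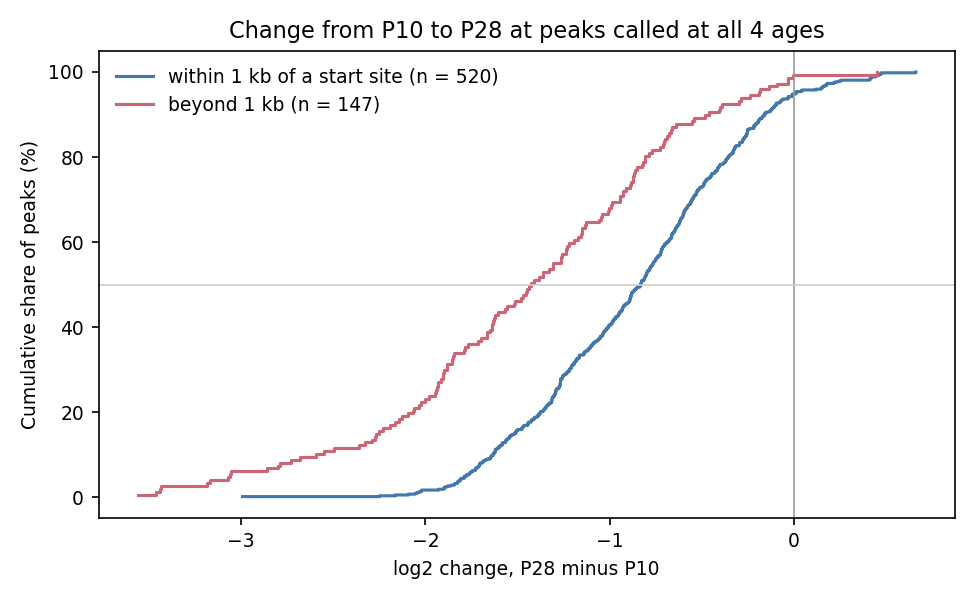
Cumulative share of peaks (y axis, %) by their log2 change from P10 to P28 (x axis, P28 minus P10), for the 520 peaks within 1 kb of a start site (blue) and the 147 others (red). The red curve lies left of the blue one over most of its range; the medians are −0.83 and −1.43.

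The largest falls from P10 to P28 were at Casz1 (above), Trim9, Arhgap31 and Gal3st4. An intergenic peak at -19852 bp from the start of Trim9, the gene of a neuronal ubiquitin ligase (chr12:70367466-70368113), had 5.44 and 7.63 (P2), 10.6 and 36.6 (P4), 69.5 and 69.7 (P10) and 5.02 and 5.81 (P28) RPKM and changed by -3.46 ± 0.58 (SE; limma adjusted p = 0.00046). The P28 values lay near those of P2 there. In an intron of Arhgap31 (chr16:38670581-38671030), RPKM was 14.3 and 20.3 (P2), 23.4 and 52.4 (P4), 32.9 and 44.6 (P10) and 2.07 and 3.27 (P28). The P28 values were below even those of P2, with changes of -3.44 ± 0.56 (SE; limma adjusted p = 0.00037) from P10 and -2.32 ± 0.56 (SE; limma adjusted p = 0.0082) from P2. The 5′ UTR peak of the sulfotransferase gene Gal3st4 (chr5:138271499-138271710) had 7.13 and 19.7 (P2), 35.3 and 78.1 (P4), 57.2 and 55.3 (P10) and 2.92 and 6.18 (P28) and changed by -3.43 ± 0.59 (SE; limma adjusted p = 0.00056). These 4 falls were among 15 of the 140 that were called in each fit without 1 library; the others were at Ankrd55, Armc9, Cadm1, Fbxo2, Gm13133, Gm33677, Gnb2, Gpm6b, Mroh5, Msantd2 and Psd2. The number of falls was 17 without P10 replicate 1, 19 without P10 replicate 4, 33 without P28 replicate 3, 35 without P28 replicate 4 and 308 without P4 replicate 3 or 4.

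Between the first and last ages, 25 of the 667 peaks were higher at P28 (3.75%) and 4 lower (0.60%), against 9.64% and 3.00% of all peaks. The median change was 0.33, against 0.57. Here the scale decided the balance: with each library centred on its median, 14 were higher and 37 lower. The rises included Rsrp1, Prph2, Sv2b, Gpi1, Fam53b, Zfp235, Gnb1 and Gas6. The Rsrp1 promoter (chr4:134923378-134923845), shown above with its Maf core, had 4.58 and 4.07 (P2), 5.43 and 16.2 (P4), 25.6 and 23.5 (P10) and 19.9 and 38.8 (P28) RPKM, one of the 28 peaks with the highest mean at P28; it changed by 2.44 ± 0.57 (SE; limma adjusted p = 0.007). Sv2b, of synaptic vesicles (chr7:75307804-75308078), had 3.21 and 4.84 (P2), 4.16 and 10.9 (P4), 30.4 and 21.8 (P10) and 14.6 and 37.5 (P28) and changed by 2.31 ± 0.58 (SE; limma adjusted p = 0.012). Upstream of Gas6, the ligand of receptors used in outer segment uptake (chr8:13506857-13507213), RPKM was 8.47 and 8.53 (P2), 13.2 and 33.2 (P4), 44.1 and 32.9 (P10) and 32.1 and 43.1 (P28), with a change of 2.01 ± 0.56 (SE; limma adjusted p = 0.021). The zinc finger gene Zfp235 (chr7:24133988-24134413) had 4.43 and 3.57 (P2), 4.77 and 16.8 (P4), 26.3 and 23.1 (P10) and 18.2 and 22.3 (P28) at its promoter and changed by 2.08 ± 0.57 (SE; limma adjusted p = 0.019).

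Lower at P28 than at P2 were Arhgap31 and intergenic peaks near Msantd2 (chr9:37473751-37474072) and Gnpda1 (chr18:38350086-38350504). Msantd2 had 16 and 25.4 (P2), 26 and 52.3 (P4), 42.1 and 46.1 (P10) and 3.37 and 5.59 (P28) RPKM and Gnpda1 17.4 and 29.1 (P2), 22.1 and 49.8 (P4), 27.8 and 23.5 (P10) and 5.91 and 5.86 (P28); their changes were -1.98 ± 0.55 (SE; limma adjusted p = 0.021) and -1.77 ± 0.56 (SE; limma adjusted p = 0.038). No call of P28 against P2 was made in every fit without 1 library. The count of 29 became 7 without P2 replicate 3, 9 without P2 replicate 4, 15 without P10 replicate 1 or 4, 5 without P28 replicate 3, 3 without P28 replicate 4, and 105 without P4 replicate 3 or 4. Over the 4 ages together, the limma F test called 246 of the 667 (36.9%), against 45.9% of all peaks. Centring left 102.

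Some peaks had close age means. The smallest range of age means among peaks of at least median level was at the promoter of Bcl2l11 (chr2:128127936-128128344), the gene of the pro-apoptotic protein BIM, with 11.7 and 14.9 (P2), 10.6 and 14.7 (P4), 13.5 and 14.6 (P10) and 9.85 and 14.4 (P28) RPKM. All 4 ages overlapped. Next were Arrdc3 (6.56 to 16.4 RPKM over the libraries), Ndufb5 (8.48 to 19.4), Rpa2 (7.93 to 16.2), Efcab2 (6.73 to 22.6), Tubb5, the tubulin gene (6.66 to 18.2), Fiz1, which encodes a zinc finger protein reported to bind NRL (9.14 to 19), and Zfand2a (7.45 to 22.0). Single libraries of these peaks thus ranged more widely than their age means. Of these 8 peaks, 7 lay at promoters and that of Efcab2 in an intron. None passed a comparison, with an SE of 0.53 to 0.57 on each log2 difference. The choice by small range made that outcome likely, so it is no sign of steady binding.

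Several loci held more than 1 of the peaks, as did 22 genes in all. Peg3, an imprinted zinc finger gene, had 3, in introns within 2316 bp of its start site. The widest (chr7:6728170-6728978) had 61.8 and 24.9 (P2), 38.9 and 74.8 (P4), 89.2 and 76.8 (P10) and 37.9 and 33.4 (P28) RPKM. P2 replicate 3 lay above P4 replicate 3 there, and none of the 3 passed a comparison. Ccdc126 had 2, of which that in an intron (chr6:49320009-49320357) had 18 and 26.7 (P2), 22.6 and 56.5 (P4), 112 and 103 (P10) and 64.4 and 66.6 (P28) RPKM. Cadm1, an adhesion gene, had 2 that lay at -193487 and -54954 bp from its start. The farther one (chr9:47336303-47336686) had 5.25 and 7.93 (P2), 8.93 and 28.6 (P4), 48 and 44.2 (P10) and 7.26 and 5.12 (P28) RPKM and changed from P10 to P28 by -2.73 ± 0.57 (SE, limma adjusted p = 0.0022). The nearer one (chr9:47474780-47475219) had 7.16 and 14.7 (P2), 28.6 and 65.6 (P4), 153 and 127 (P10) and 39.4 and 39.8 (P28). It rose from P4 to P10, fell from P10 to P28 and was higher at P28 than at P2 (limma adjusted p = 0.042, 0.025 and 0.033). Centring ended all 3 calls (limma adjusted p = 0.18, 0.059 and 0.053), and each was lost without some libraries. In Ppp2r2b, a phosphatase subunit gene, 2 intron peaks had P10 values of 61.4 to 94.7 and P28 values of 13.7 to 24.7. Both fell from P10 to P28, that at chr18:42860892-42861289 with limma adjusted p = 0.034 and that at chr18:42877558-42877918 with 0.0077. Centring ended the call of the former (limma adjusted p = 0.12), and both calls were lost without some libraries.

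The rule has a threshold at each list, and both weak and strong peaks stood at its edges. By summed rank of the authors' signal in the 4 lists, the members nearest the edge were Cct4 (chr11:22990368-22990748), a chaperonin gene, with 2.64 and 2.5 (P2), 2.67 and 4.12 (P4), 5.79 and 4.91 (P10) and 5.69 and 4.73 (P28) RPKM, Marchf3 (deposited as a date), with 1.11 to 4.98, and a Peg3 peak with 13.9 to 41.6. Strong peaks just outside the rule included some missing from the P2 list alone. An intron of Esrrb, a nuclear receptor gene of rods (chr12:86507673-86508054), had 5.93 and 6.97 (P2), 12 and 32.9 (P4), 158 and 115 (P10) and 105 and 133 (P28) RPKM. Optn (chr2:5083812-5084164), the gene of the autophagy receptor optineurin, had 10.3 and 22.1 (P2), 17.6 and 40.0 (P4), 107 and 70.7 (P10) and 79 and 98.3 (P28). The P2 means of the 667 peaks ran from 1.54 to 67.9 RPKM.

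Promoter letters differed between the sets in a motif that is not NRL's. RefSeq promoter windows of 300 bases (250 before to 50 after the start) were overlapped by 421 of the 667 peaks. The CCAAT box (CCAAT, either strand), which the factor NF-Y reads, was in 279 of 421 windows (66.3%, Wilson 95% interval 61.6 to 70.6). It was in 58.2% of windows of peaks called from P4 onward but not at P2, 51.5% of the 3657 windows of all peaks, 47.1% of those of peaks called at P10 only, and 37.4% of all 32817 promoters. Windows with 2 or more CCAAT boxes were 42.3% (37.7 to 47.0), against 25.9% for all peaks and 11.7% for all promoters; the count of 2 was chosen after the values were seen. Median GC content was 60.3% for the windows of the set and 61.3% for those of all peaks, against 52.7% for all promoters. Windows come from the same libraries and caller, so the intervals cover counting only, and no test was made.

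Stretches of the 4 promoters with the most CCAAT boxes before the start are shown with the boxes in capitals on either strand. Arntl encodes the clock factor BMAL1, Sp2 a factor of the SP family, Eif2ak3 the stress kinase PERK and Ube2c a ubiquitin-conjugating enzyme of mitosis.
Arntl (chr7:113207251-113207330, plus strand): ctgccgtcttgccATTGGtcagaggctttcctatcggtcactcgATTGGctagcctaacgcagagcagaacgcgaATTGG
Sp2 (chr11:96977762-96977841, minus strand): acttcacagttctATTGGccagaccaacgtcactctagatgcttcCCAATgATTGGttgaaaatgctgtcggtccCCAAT
Eif2ak3 (chr6:70844265-70844344, plus strand): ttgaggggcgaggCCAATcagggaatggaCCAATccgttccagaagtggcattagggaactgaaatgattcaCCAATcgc
Ube2c (chr2:164769699-164769778, plus strand): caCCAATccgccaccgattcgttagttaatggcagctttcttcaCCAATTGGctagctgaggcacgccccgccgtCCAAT

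Arntl had 6.57 and 5.96 (P2), 5.08 and 9.69 (P4), 17.8 and 9.76 (P10) and 11 and 5.98 (P28) RPKM, and Ube2c (chr2:164769516-164770110) 2.88 to 4.80 over the 8 libraries, a low level for the set. Over the set, windows with the box had a median of 14.0 RPKM at P10 and windows without it 13.3.

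The Maf core was in 85 of the 421 windows (20.2%, 16.6 to 24.3), against 16.3% for all peaks and 19.5% for all promoters. Its longer form TGCTGAC, which contains it, was in 5.70% against 4.07% for all peaks, and the AP-1 site (TGANTCA), which can overlap a Maf core, in 5.94 against 4.18%. The CRE (TGACGTCA) was in 4.75 against 4.92%, and the CRX core in 8.55 against 7.14%. The ETS site (CCGGAAG) was in 18.1% of the windows and 23.1% of those of all peaks, the GC box (GGGCGG) in 72.2 and 70.3%, and the E-box (CAGCTG) in 10.9 and 12.2%. Over all promoters the shares were 4.67% (longer Maf form), 7.81% (AP-1), 1.79% (CRE), 7.06% (CRX), 8.86% (ETS), 35.6% (GC box) and 16.3% (E-box). The E-box share of the set thus lay below that of all promoters, and the ETS, GC box and CRE shares well above, as they did for all peaks. For AP-1 the interval of the set (4.05 to 8.62%) took in the share of all promoters. Windows with a Maf core had medians of 5.28, 9.72, 18.5 and 7.73 RPKM in order of age, and windows without it 5.50, 8.34, 12.6 and 6.77. The medians were thus apart at P10 and close at P2. This was not particular to the Maf core. At P10, windows with and without the CRX core had medians of 20.0 and 13.2 RPKM (5.57 and 5.40 at P2). The P10 medians were 19.2 and 13.5 for the AP-1 site and 16.7 and 13.4 for the E-box. For the CRE (11.3 and 14.0), the ETS site (11.7 and 14.6) and the GC box (12.8 and 16.1), windows with the motif were the lower at P10. Interval for interval, the shares of Maf, AP-1, CRE and CRX letters overlapped between the set and all peaks. A window without a motif says only that these letters are not in it.

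**Figure D4:**
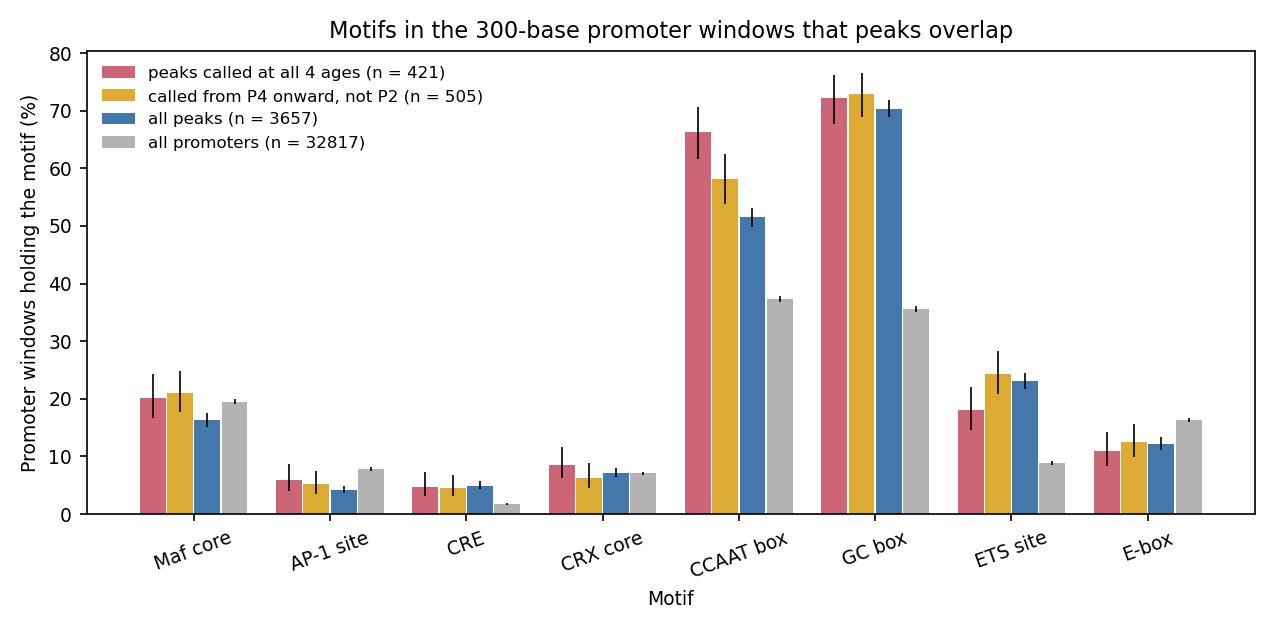
Share of 300-base promoter windows holding each motif (y axis, %; motif names on the x axis) for windows overlapped by the peaks called at all 4 ages (red, n = 421), by peaks called from P4 onward but not at P2 (yellow, n = 505) or by any peak (blue, n = 3657), and for all promoters (grey, n = 32817). Bars start at 0 and black lines are Wilson 95% intervals; the CCAAT box differs most between red and blue, 66.3 against 51.5%.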

How the data were processed

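CUT&RUN for NRL was made on 250000 dissociated C57BL/6J retinal cells per library, per the labels' protocols. The submitters' processing notes name bedtools 2.29.0, Bowtie2 2.3.5.1, MACS2 2.2.5, Picard 2.20.8, Trimmomatic 0.38 and SAMtools 1.9, with no order. The deposited table gives RPKM, as its values show, of 8 libraries (49430 to 227692 reads in peaks); no source used here says how the authors set the library scales. Each column after the first was divided by widths shifted by 39 rows, so whole reads were recovered (100% of values, within 0.001) and RPKM was rebuilt with each peak's own width. The authors' deposited signal and score per listed peak served only for ranks inside each list. Place, distance and gene are the authors' deposited annotation; 8995 of 8996 gene identifiers matched RefSeq (GRCm38.p6), which also gave the promoter and miRNA sequences. A symbol that had turned into a date was replaced through its gene identifier.

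Limma 3.58.1 in R 4.3.3 (trend, robust) was fitted to log2(RPKM + 1) of all 8996 peaks in all 8 libraries, with age as factor, no block and p-values adjusted over all of them (Benjamini-Hochberg); calls have an adjusted p below 0.05. This scale understates the fold change of weak peaks. The fit was tested on simulated data. Shares have Wilson 95% intervals. Alternatives were other pseudocounts, a filter, median centring, the values as deposited, limma-voom, a replicate block and leaving out each library. Other steps ran in Python 3.11.15 with SciPy 1.17.1, pandas 2.3.3, NumPy 2.4.6 and Matplotlib 3.10.9.

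The peaks, lists, motifs and tests were chosen with earlier results of these data known. Named peaks are the 12 of highest level, the largest called changes without overlap between the libraries of the ages compared, members near genes of the lists, the 8 with the smallest range, 3 on each side of the rule's edge, and genes with several members. Some items that these rules name are not reported here. Peaks without a promoter window have no sequence here, because no genome was used.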

Additional observations from a re-analysis of the deposited data

How the results depend on the processing

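Of the 44 calls of named peaks, limma-voom on the recovered reads, a pseudocount of 3, a filter on low values and the fit without P4 replicate 4 kept 44, and no setting reversed one. A pseudocount of 0.1 ended 33, the values as deposited 28, median centring 17, and leaving out P10 replicate 1 ended 28, P10 replicate 4 27, P28 replicate 3 24, P28 replicate 4 22, P2 replicate 3 10, P2 replicate 4 11 and P4 replicate 3 10. Counts among the 667 peaks moved as follows. P4 against P2 (0 calls) gave 3 with the filter and 1 with limma-voom, and 0 to 168 leaving out 1 library. P10 against P4 (38) gave 0 with a pseudocount of 0.1, 80 with 3, 62 with the filter, 5 after centring, 10 as deposited, 98 with limma-voom, and 0 to 331 leaving out 1 library. P28 against P10 (140) gave 36 with a pseudocount of 0.1, 71 after centring, 53 as deposited, 222 with limma-voom, and 17 to 308. P28 against P2 (29) gave 3 with a pseudocount of 0.1, 48 with the filter, 51 after centring, 14 as deposited, 61 with limma-voom, and 3 to 105. The F test (246) gave 116 with a pseudocount of 0.1, 102 after centring, 147 as deposited, and 51 to 418. The set had 341 peaks at equal list length, and its promoter share of 78.0% was 69.4% with the start inside the peak and 81.4% within 3 kb. The share of windows with a Maf core was 20.2% with and without windows of peaks beyond 300 bp of a start. The cause of these shifts was not tested. The replicate numbers gave a block in which same-numbered deviations from the age mean correlated from -0.013 to 0.085. With few libraries per age and few reads per peak, this does not settle whether the numbers pair the libraries. With the replicate block the counts were 2, 0, 17, 41 and 80 in the order above, and it ended 25 of the 44 calls. With a median of 14 to 62 reads per peak and 4 residual degrees of freedom, small changes were not detectable.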

Other observations

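Stress, protein-folding, mitotic and histone genes also stood among the 667 peaks. The 4 groups were put together after the members were seen, from members only, so their sizes support nothing and no test was made on them. Of genes induced within minutes of a stimulus or by stress, 11 had 12 of the peaks (Btg2, Dusp1, Fos, Gadd45a, Jun, Jund, Klf6, Nfkbia, Nr4a1, Rhob and Srf). Their median was 9.59 (P2), 15 (P4), 35.4 (P10) and 12.2 RPKM (P28). The Gadd45a promoter (chr6:67037295-67037663), in the gene of a growth arrest protein, had 9.56 and 9.28 (P2), 16.9 and 39.1 (P4), 67.9 and 75.1 (P10) and 21 and 21.3 (P28) RPKM, and the peak at -16047 bp from the start of Nfkbia, the NF-kappaB inhibitor gene (chr12:55508694-55509161), had 3.5 and 4.07 (P2), 11.7 and 31.4 (P4), 67 and 48.5 (P10) and 9.93 and 11.2 (P28). From P10 to P28, 4 of the 12 peaks fell in limma, with adjusted p of 0.0054 at Nfkbia and 0.028 at Gadd45a; Btg2 and Dusp1 were the others. Of all 8996 peaks 20.7% were lower in that comparison. None of these 4 falls was called in every fit without 1 library, and centring each library on its median ended that of Dusp1 (0.092).

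Endoplasmic reticulum chaperone and stress genes (Calr, Dnajb9, Dnajb11, Eif2ak3, Hspa5, Os9, Pdia4 and Sel1l) had 8 peaks. All 7 of their promoter windows held a CCAAT box. Hspa5, which encodes BiP, had 11 and 4.52 (P2), 10.5 and 16.3 (P4), 16.7 and 9.69 (P10) and 5.16 and 8.04 (P28) RPKM at its promoter (chr2:34771574-34772204), and 1 of the 8, assigned to Dnajb9 from 285523 bp away, fell from P10 to P28. Of 11 mitotic genes, among them Kif11, Cdc25c and Ube2c, 6 of 8 windows held the box.

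Core histone genes (10, with the box in all 10 windows) had medians of 11.9, 9.66, 10.6 and 7.71 RPKM in order of age. H2ac13, H2ac7, H2aw and H4c1 made up 4 of the 6 peaks with the highest age mean at P2. H4c1 (chr13:23761115-23761707) had 20.4 and 7.06 (P2), 7.49 and 11.3 (P4), 8.24 and 5.89 (P10) and 5.75 and 5.25 (P28) RPKM, with P2 replicate 3 far above P2 replicate 4, and passed no test. H2bc11 (chr13:22042990-22043275) had 11.9 and 13.3 (P2), 12 and 28 (P4), 63.9 and 60.2 (P10) and 34.7 and 59 (P28) and was higher at P10 than at P4 and at P28 than at P2 (limma adjusted p = 0.037 and 0.038), calls that centring ended (0.14 and 0.057). Histone genes have near-identical copies, and how the authors assigned shared reads is unknown, so these values are uncertain.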
